A study of Rattus norvegicus with 16 samples.

Results

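The 7 genes described here are Mrgprd, Mrgpre, Il31ra, Osmr, Nppb, Hrh1 and F2rl1, a set tied to itch and to non-peptidergic nociceptors. They were chosen by symbol, and each is 1 of the 21021 genes listed for every sample. Their Entrez gene identifiers are 293648 (Mrgprd), 404660 (Mrgpre), 688622 (Il31ra), 310132 (Osmr), 25105 (Nppb), 24448 (Hrh1) and 116677 (F2rl1). RNA-Seq was performed on dorsal root ganglia (DRG) of adult female Sprague-Dawley rats after tumor cell implantation (TCI), in which Walker-256 mammary gland carcinoma cells were injected into the left tibia as a model of bone cancer pain. Ganglia were collected 1, 7 and 14 days after TCI and, for the sham group, 14 days after the sham operation, with 4 samples in each of the 4 groups. By the labels sham rats received PBS in the left tibia, whereas the methods of the study describe boiled tumor cells. The ages of the rats were not given in the sources used here. No group carried a transgene, the lumbar ganglia of the injected side of 1 animal were pooled into 1 sample, and the carcinoma cells came from the ascites of carrier rats. Because all sham ganglia were collected on day 14, TCI days 1 and 7 differ from sham also in the time since surgery, and these effects cannot be told apart.

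Non-peptidergic nociceptors are small sensory neurons of skin and deep tissue that bind the lectin IB4 and carry the receptors Ret and P2rx3. One class of them is marked by the receptor Mrgprd, while a smaller class of itch neurons carries the interleukin-31 receptor, made of the subunits IL31RA and OSMR, and releases the peptide encoded by Nppb in the spinal cord. Histamine and proteases excite itch and pain neurons through receptors such as the histamine H1 receptor (Hrh1) and the protease-activated receptor PAR2 (F2rl1).

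Expression is given in FPKM, a count of fragments that is divided by transcript length and by all fragments mapped in a sample, so that levels can be compared between genes per length. The study left out replicate 2 of TCI day 1 and replicate 3 of TCI day 7, and values below rest on the other 14 samples (4 sham, 3 of day 1, 3 of day 7 and 4 of day 14) unless stated. Replicate 3 of TCI day 7 stood apart, with a summed FPKM of 22451 over 10 skeletal muscle markers against 10.9 to 16.4 in the other day 7 samples, and its pan-neuronal sum of 11670 was the lowest of all samples. Among the sham samples, replicate 4 had a muscle marker sum of 547. All 17 pan-neuronal markers and all 6 peptidergic nociceptor markers passed the filter on low values, so that the defining cells of the labelled tissue were present. The FPKM tables hold no read totals. The smallest values of 34 low genes gave relative depths from 0.920 to 1.09 of the median sample, a rough estimate from 2 to 17 genes per sample.

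Per length, Mrgpre and Il31ra had the highest levels of the set, Mrgprd followed, and the remaining 4 genes were low. Mean FPKM over the 14 samples was 18.6 for Mrgpre, 18.0 for Il31ra, 14.4 for Mrgprd, 4.35 for Osmr, 1.83 for Hrh1, 1.36 for Nppb and 0.651 for F2rl1. These means placed the genes between percentile 78.5 (Mrgpre) and percentile 32.1 (F2rl1) of all listed genes. In this order Mrgprd and Osmr were the only neighbours whose ranges did not overlap (11.5 to 19.2 FPKM against 2.35 to 8.70 FPKM). Mrgpre was above Il31ra in 8 of the 14 samples, so that their order was not stable, while Il31ra was above Mrgprd in 13 and Osmr above Hrh1 in all 14. F2rl1 did not reach 1 FPKM in any of the 14 samples and Nppb reached it in 8.

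**Figure D1:**
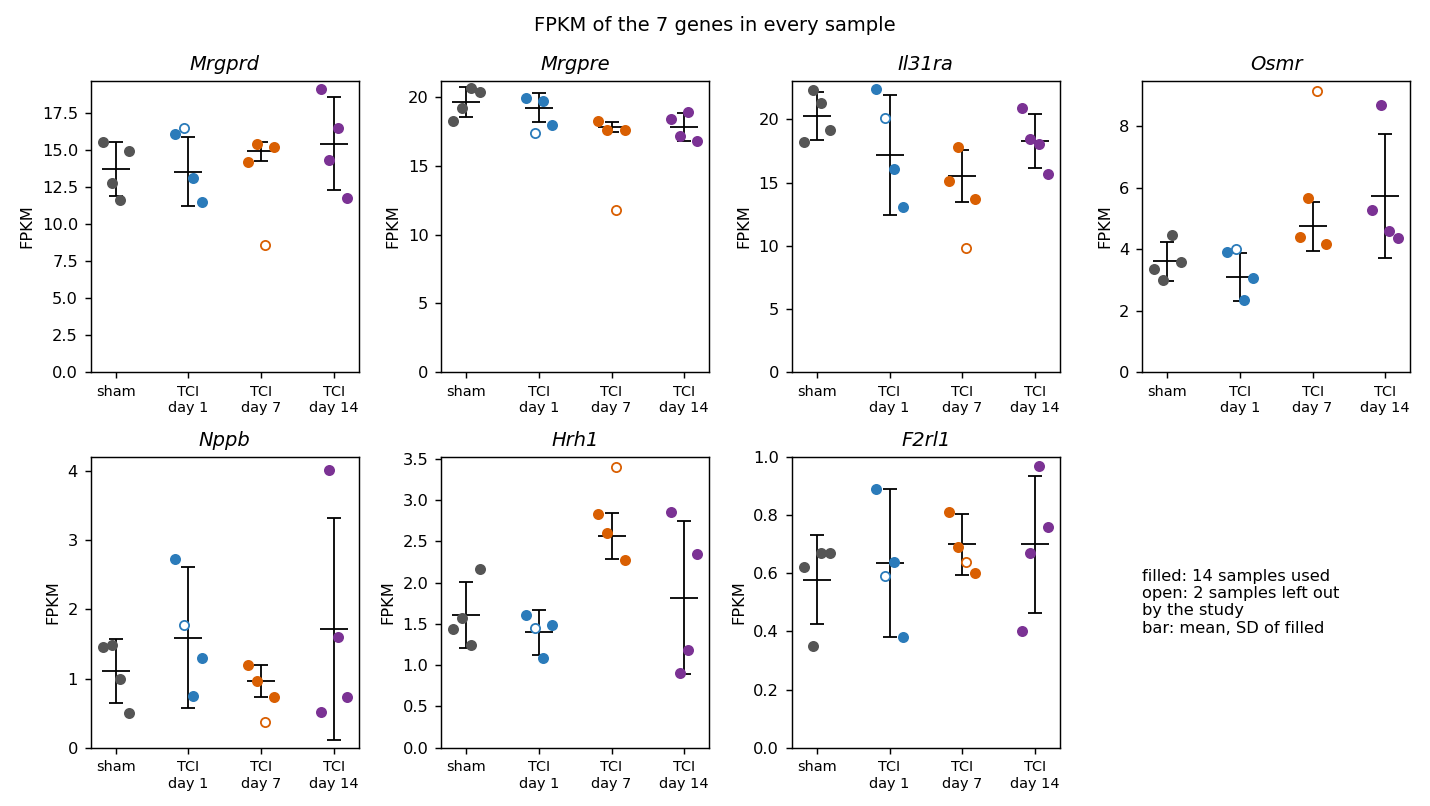
FPKM (y axis, linear from 0, own scale per gene) of each gene in every sample of sham and of TCI days 1, 7 and 14 (x axis). Filled points are the 14 samples used, open points the 2 left out by the study, and bars give the mean and SD of the filled points. Mrgpre and Il31ra sit lower on day 7 than in sham, Hrh1 sits higher on day 7, and Osmr reaches 8.70 FPKM in 1 day 14 sample.

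Did the expression of these genes change after TCI? No member passed limma's test (Benjamini-Hochberg adjusted p of at most 0.05 over the 14023 genes tested) against sham on any day. Of the 7 genes, 6 had at least 1 FPKM in at least 3 samples and were tested, and F2rl1 missed this filter. On TCI day 7, 0 of the 6 were called, where 17.9% of all tested genes were (14.5% higher and 3.45% lower than sham). On TCI day 14, 0 of the 6 were called against 15.1% of all tested genes (11.9% higher and 3.21% lower). On TCI day 1, limma called 0% of all tested genes, 5.23% had an unadjusted p under 0.05, and 0 of the 6 members did. At an unadjusted p under 0.05, limma listed 3 members on day 7 (Hrh1 higher, Il31ra and Mrgpre lower), where 31.2% of all tested genes were listed. The same threshold listed 2 members on day 14 (Osmr higher, Mrgpre lower) against 29.9% of all tested genes. The stricter cut-offs of the study, an adjusted p of at most 0.001 together with a log2 difference of 1 or more either way, called 0 members on any day. They called 1.83% of all tested genes as higher and 0% as lower on day 7, and 0.642% as higher and 0% as lower on day 14. Here these cut-offs were applied to limma's values on the log2(FPKM + 1) scale. The study applied them to another test and reported more genes, also lower ones, so these shares do not stand for its counts. The median difference of the 6 members on the log2(FPKM + 1) scale was 0.02 on day 7 and 0.11 on day 14, beside 0.04 and 0.03 over all tested genes.

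**Figure D2:**
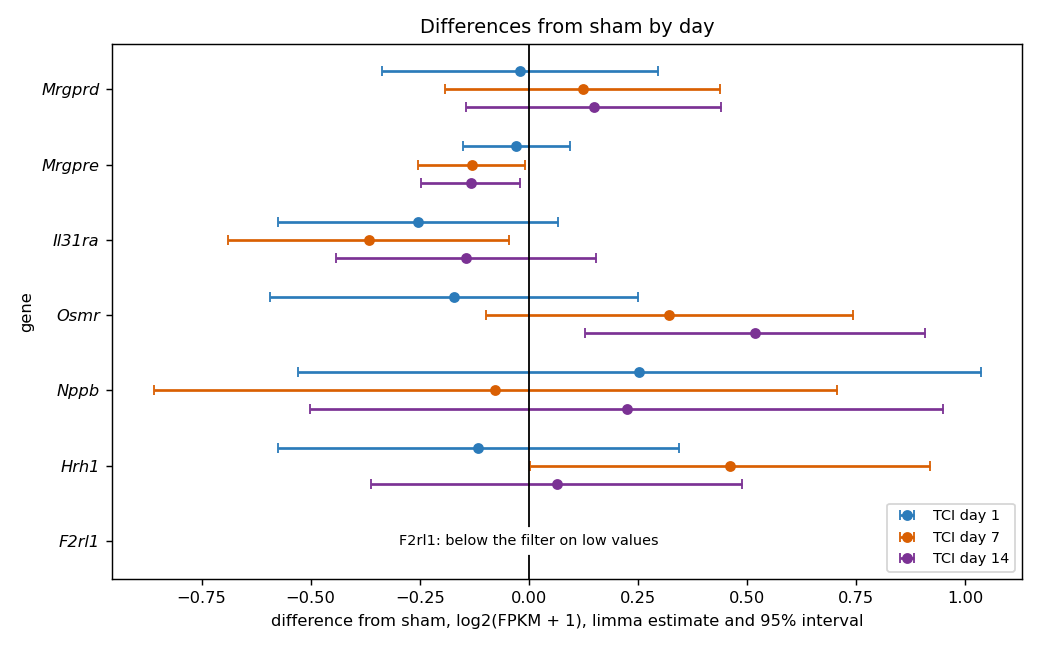
Differences from sham on the log2(FPKM + 1) scale (x axis) with 95% intervals from limma for the 6 tested genes (y axis) on TCI days 1, 7 and 14, over the 14 samples. On day 7 the intervals of Mrgpre and Il31ra lie below 0 and that of Hrh1 lies above 0, and on day 14 those of Osmr (above) and Mrgpre (below) do, before adjustment over all genes.

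Mrgprd encodes the Mas-related receptor for beta-alanine that marks the large class of non-peptidergic nociceptors. Its FPKM in the 4 sham samples was 15.6, 12.8, 11.6 and 14.9. On TCI day 1 it was 16.1, 13.1 and 11.5, on day 7 it was 14.2, 15.4 and 15.2, and on day 14 it was 19.2, 14.3, 16.5 and 11.8 FPKM. All groups overlapped, and the highest and one of the lowest values both fell on day 14. The day 7 difference from sham was 0.12 on the log2(FPKM + 1) scale with a 95% interval from -0.19 to 0.44 (limma, adjusted p = 0.615). The day 14 difference was 0.15 with an interval from -0.14 to 0.44 (limma, adjusted p = 0.498). The left-out sample of day 7 had 8.61 FPKM, the lowest Mrgprd value of all 16 samples, beside the muscle signal given above. With it, the day 7 difference was -0.06 (limma, adjusted p = 0.842).

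Mrgpre encodes an orphan receptor of the same family that non-peptidergic neurons express together with Mrgprd. It was the most even of the 7 genes, with 18.3, 19.2, 20.7 and 20.4 FPKM in sham and 20.0, 19.7 and 18.0 FPKM on TCI day 1. The day 7 samples had 18.2, 17.6 and 17.6 FPKM and the day 14 samples 18.4, 17.2, 18.9 and 16.8 FPKM. All 3 day 7 samples lay just below the lowest sham sample, whereas 2 of the day 14 samples lay above it. A lower value in every day 7 sample than in every sham sample was found for 10.1% of all tested genes. The mean was 19.6 ± 1.09 FPKM in sham (SD, n = 4), 17.8 ± 0.361 FPKM on day 7 (SD, n = 3) and 17.8 ± 1.01 FPKM on day 14 (SD, n = 4). The difference from sham was -0.13 on both days (SE 0.06 on day 7 and 0.05 on day 14), with limma's adjusted p = 0.133 on day 7 and 0.107 on day 14. Exact permutation tests (two-sided) gave p = 0.0571 for day 7 and p = 0.0857 for day 14, where the smallest p these group sizes allow is 0.0286. After quantile normalization limma called Mrgpre lower on day 7 (adjusted p = 0.0256) and on day 14 (adjusted p = 0.0372), as it did after rescaling to TPM (adjusted p = 0.0417 and 0.0443). With all 16 samples the day 7 difference was -0.27 (limma, adjusted p = 0.0842). Centred on the pan-neuronal markers of each sample, the day 7 difference turned to 0.04 (limma, adjusted p = 0.652) and the day 14 difference was -0.01. The summed pan-neuronal FPKM was 19360 to 20352 in sham, 16306 to 17252 on day 7 and 16052 to 19313 on day 14. In RNA of a whole ganglion, fewer cells of a type and less RNA per cell cannot be told apart.

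Il31ra and Osmr encode the subunits of the interleukin-31 receptor, and Osmr also pairs with the shared subunit gp130 to form an oncostatin M receptor on many cell types. On average, Il31ra was lower than sham on TCI day 7 and Osmr was higher than sham on days 7 and 14. Neither gene passed the test across all genes. On day 7 Osmr also missed the unadjusted threshold (limma, unadjusted p = 0.122), and its values overlapped with sham. Of the 7 genes, 5 had an entry among the RefSeq promoters of assembly GRCr8, and no entry was used for Mrgprd and F2rl1. The 250 bases before the annotated starts of both subunit genes are shown because the day 7 differences of these subunits had opposite signs. The interval is chr2:45917010-45917259 on the minus strand for Il31ra and chr2:57688562-57688811 on the minus strand for Osmr. Both are written 5′ to 3′, and capitals mark a match to the AP-1 motif TGANTCA.
Il31ra: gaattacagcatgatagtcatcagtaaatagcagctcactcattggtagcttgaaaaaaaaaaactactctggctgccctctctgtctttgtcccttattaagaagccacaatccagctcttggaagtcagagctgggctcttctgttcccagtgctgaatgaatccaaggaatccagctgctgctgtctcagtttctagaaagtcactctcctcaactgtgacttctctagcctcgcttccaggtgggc
Osmr: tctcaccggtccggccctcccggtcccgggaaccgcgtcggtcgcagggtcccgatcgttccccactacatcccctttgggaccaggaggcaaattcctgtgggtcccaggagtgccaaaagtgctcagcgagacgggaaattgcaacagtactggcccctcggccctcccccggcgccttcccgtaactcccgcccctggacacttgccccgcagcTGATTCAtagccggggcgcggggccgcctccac

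The Osmr stretch had a GC content of 67.6% and that of Il31ra 46.4%, beside a median of 51.2% over all promoters in the table. The AP-1 match in Osmr begins at position -33 from the annotated start, and 6.34% of the 33465 promoters hold this motif on either strand. Neither stretch held the STAT motif TTCNNNGAA, found in 7.67% of all promoters, or the NF-kB motif (GGGA and CC with 4 bases between), found in 16.4%. These matches describe letters only and are not measured binding.

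Il31ra had 18.2, 22.4, 21.3 and 19.2 FPKM in the sham samples. On TCI day 1 it had 22.4, 16.1 and 13.1 FPKM, on day 7 it had 15.1, 17.8 and 13.7 FPKM, and on day 14 it had 20.9, 18.5, 18.1 and 15.7 FPKM. All 3 day 7 samples were below the lowest sham sample, as was found for 10.1% of all tested genes. Day 1 spread from above to far below sham, and day 14 overlapped with it. The mean was 20.3 ± 1.90 FPKM in sham (SD, n = 4) and 15.5 ± 2.08 FPKM on day 7 (SD, n = 3), a ratio of 0.766. The day 7 difference on the log2(FPKM + 1) scale was -0.37 (SE 0.15, 95% interval -0.69 to -0.05), with limma's unadjusted p = 0.0283 and adjusted p = 0.110. The two-sided exact permutation test of the day 7 difference gave p = 0.0286, the smallest it can give. On day 1 the difference was -0.25 (limma, adjusted p = 0.959) and on day 14 it was -0.14 (limma, adjusted p = 0.525). Limma called Il31ra lower on day 7 with all 16 samples (-0.52, adjusted p = 0.0408), after quantile normalization (adjusted p = 0.0466), with only both groups in the fit (adjusted p = 0.0295) and without replicate 1 of TCI day 1 (adjusted p = 0.0421). Centred on the pan-neuronal markers, the difference was -0.20 (adjusted p = 0.348), and adjusted p ranged from 0.0295 to 0.348 over all alternatives. The day 7 sample left out by the study had 9.79 FPKM, the lowest Il31ra value of all 16 samples.

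Osmr had 3.35, 2.99, 4.46 and 3.59 FPKM in sham and 3.90, 2.35 and 3.06 FPKM on TCI day 1. On day 7 it had 4.40, 5.66 and 4.17 FPKM and on day 14 it had 5.26, 8.70, 4.60 and 4.37 FPKM. All TCI day 7 and day 14 samples were above all day 1 samples, while sham replicate 3 overlapped with both later days. The mean was 3.60 ± 0.626 FPKM in sham (SD, n = 4), 4.74 ± 0.802 FPKM on day 7 (SD, n = 3) and 5.73 ± 2.01 FPKM on day 14 (SD, n = 4). The day 14 difference from sham was 0.52 on the log2(FPKM + 1) scale (SE 0.18, 95% interval 0.13 to 0.91), with limma's adjusted p = 0.0714. The exact permutation test (two-sided) gave p = 0.0571 for day 14. On day 7 the difference was 0.32 (SE 0.19, limma's adjusted p = 0.285), and on day 1 it was -0.17 (limma's adjusted p = 0.991). Replicate 2 of day 14 weighed on the day 14 value, and without it the difference was 0.33 (limma, adjusted p = 0.163). Without replicate 4 of day 14 limma called Osmr higher (0.61, adjusted p = 0.0469), as it did after centring on the pan-neuronal markers (0.64, adjusted p = 0.0281). The left-out day 7 sample had 9.13 FPKM, the highest Osmr value of all 16 samples, and with it the day 7 difference was 0.53 (limma, adjusted p = 0.103). An F test over all 4 groups in limma gave Osmr the lowest adjusted p of the 6 tested members (0.0714), where 16.5% of all tested genes were called.

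Both subunits were set against each other as the ratio of their FPKM within a sample, a measure chosen after the values were seen and given without a test. The ratio of Il31ra to Osmr was 5.44, 7.47, 4.78 and 5.34 in sham and 5.75, 6.84 and 4.27 on TCI day 1. On day 7 it was 3.43, 3.14 and 3.28, and on day 14 it was 3.98, 2.13, 3.93 and 3.59. Every day 7 and day 14 sample was below every sham and day 1 sample. Choosing the ratio after seeing both genes makes such a split more likely, and other gene pairs were not examined. In the left-out samples the ratio was 5.01 on day 1 and 1.07 on day 7, on the same sides as the other samples of their groups.

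**Figure D3:**
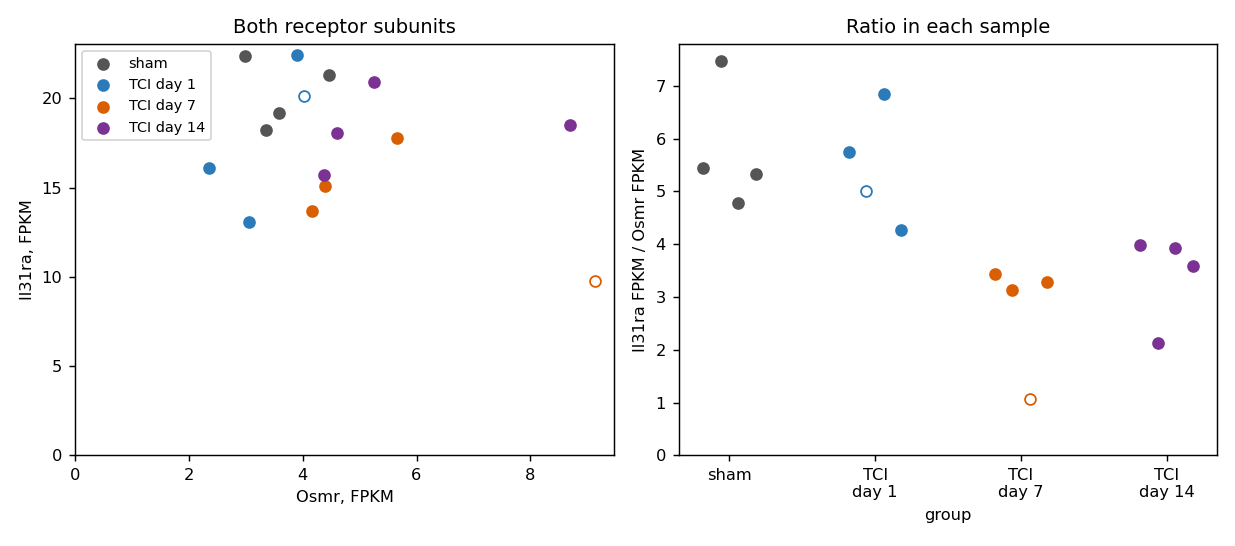
Left, FPKM of Il31ra (y axis) against FPKM of Osmr (x axis) in each of the 16 samples. Right, the ratio of Il31ra to Osmr FPKM (y axis) by group (x axis). Filled points are the 14 samples used and open points the 2 left out. The ratio is at most 3.98 on days 7 and 14 and at least 4.27 in sham and on day 1.

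Osmr is also expressed by cells other than neurons, and macrophage and T cell markers were set beside it. All 12 macrophage markers tested rose on day 7 and 10 of 12 on day 14 (limma). Summed over the list, macrophage FPKM ranged from 32.6 to 59.0 in sham and from 43.0 to 54.7 on day 1. Day 7 sums were 336 to 456, and day 14 sums were 172 to 623. The sample with the highest sum, replicate 2 of day 14 with 623, was also the one with the highest Osmr value of the 14 samples (8.70 FPKM). The left-out day 7 sample, with 9.13 FPKM of Osmr, had a macrophage sum of 392. That sum was below the 456 of replicate 2 of day 7, which had 5.66 FPKM of Osmr. T cell markers rose as well, in 7 of 7 tested on both days, from a sum of at most 1.94 in sham and on day 1 to 17.6 or more on days 7 and 14. Their part in the Osmr result was not tested.

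Nppb encodes the brain natriuretic peptide, the transmitter that itch neurons release onto spinal cord neurons carrying Npr1. It was low, at 1.45, 1.49, 1.00 and 0.50 FPKM in sham and 2.72, 0.75 and 1.30 FPKM on TCI day 1. On day 7 it was at 1.20, 0.97 and 0.74 FPKM and on day 14 at 0.51, 4.01, 1.60 and 0.73 FPKM. The groups overlapped throughout, and a single day 14 sample, replicate 2, held the highest value. Against sham, Nppb differed by 0.25 on day 1, by -0.08 on day 7 and by 0.22 on day 14 (log2(FPKM + 1) scale), and limma's adjusted p lay between 0.699 and 0.994. The 95% interval of the day 7 difference ran from -0.86 to 0.71, so that differences of either sign within it were not excluded by these samples. Without replicate 2 of day 14, the day 14 difference turned to -0.13 (limma).

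Hrh1 encodes the histamine H1 receptor, found on sensory neurons and on vessel and connective tissue cells. Its FPKM was 1.44, 1.57, 1.25 and 2.17 in sham and 1.61, 1.09 and 1.49 on TCI day 1. On day 7 it was 2.83, 2.60 and 2.27, and on day 14 it was 2.85, 0.90, 1.18 and 2.35. All 3 day 7 samples were above all sham and day 1 samples, and the day 14 samples fell into a high and a low pair above and below all sham samples. A higher value in every day 7 sample than in every sham sample was found for 23.8% of all tested genes. The mean was 1.61 ± 0.397 FPKM in sham (SD, n = 4) and 2.57 ± 0.281 FPKM on day 7 (SD, n = 3), a ratio of 1.60. The day 7 difference on the log2(FPKM + 1) scale was 0.46 (SE 0.21, 95% interval 0.00 to 0.92), with limma's unadjusted p = 0.0493 and adjusted p = 0.159. The exact permutation test (two-sided) gave p = 0.0571 for day 7. On day 14 the difference was 0.06 (limma, adjusted p = 0.863). Limma called Hrh1 higher on day 7 when only both groups entered the fit (adjusted p = 0.0311) and after centring on the pan-neuronal markers (0.63, adjusted p = 0.0378), whereas quantile normalization lowered the difference to 0.22 (adjusted p = 0.455). The left-out day 7 sample had 3.40 FPKM, the highest Hrh1 value of all 16 samples.

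Markers of fibroblasts, mast cells and other cell types were set beside Hrh1. Fibroblast markers, of which 3 of 7 rose on day 7 and 1 of 7 on day 14 (limma), had a summed FPKM of 421 to 597 in sham and 957 to 1209 on day 7. Day 1 sums were 631 to 815, also above every sham sample. Hrh1 did not follow on day 1, at 1.09 to 1.61 FPKM against 1.25 to 2.17 FPKM in sham. On day 14 their sum was 965, 688, 338 and 863 in replicates 1 to 4, and Hrh1 was 2.85, 0.90, 1.18 and 2.35 FPKM in the same samples. Both day 14 samples with the higher fibroblast sums thus were those with the higher Hrh1 values. The same samples also had the higher sums of endothelial, Schwann cell and mast cell markers, so this split was not particular to fibroblasts. Macrophage and T cell sums did not split this way. Endothelial sums were 51.8 to 58.5 in sham, 59.2 to 80.9 on day 7, and 68.7, 59.5, 51.8 and 61.7 in replicates 1 to 4 of day 14. Of 10 mast cell markers only Kit passed the filter, at 12.6 to 14.2 FPKM in sham, 11.6 to 13.0 FPKM on day 7 (a difference from sham of -0.09 on the log2(FPKM + 1) scale, limma's adjusted p = 0.393) and 10.6 to 12.6 FPKM on day 14 (-0.14, adjusted p = 0.161). The mast cell protease Cpa3 was at 0.02 to 0.09 FPKM in sham and at 0.72 to 1.51 FPKM on day 7, and the protease Cma1 was at 0.04 to 0.26 FPKM in sham and at 0.78 to 1.76 FPKM on day 7. On day 14 both overlapped with sham, at 0 to 1.19 FPKM for Cpa3 and 0.21 to 1.31 FPKM for Cma1. Hdc, of the same marker list, was not higher on day 7, with a mean of 0.355 FPKM in sham and 0.300 FPKM on day 7. Kit was far above both proteases in each of these groups, and whether it came from mast cells was not tested. The part of fibroblasts, endothelial cells, Schwann cells and mast cells in the Hrh1 values was not tested.

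**Figure D4:**
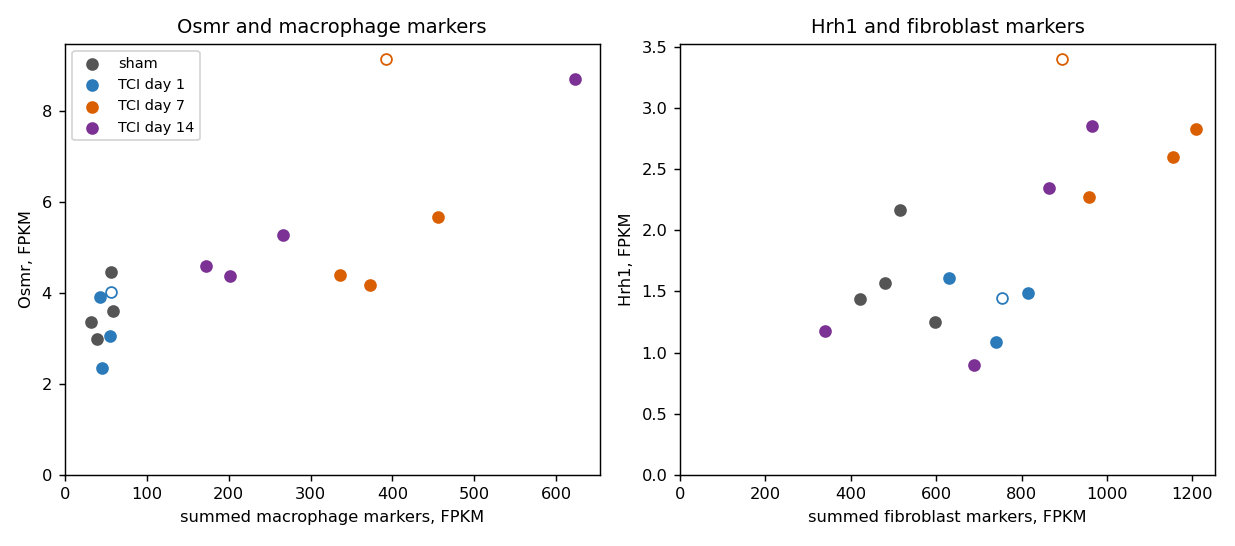
Left, Osmr FPKM (y axis) against the summed FPKM of 12 macrophage markers (x axis). Right, Hrh1 FPKM (y axis) against the summed FPKM of 7 fibroblast markers (x axis). Each point is a sample, filled for the 14 used and open for the 2 left out. Replicate 2 of day 14 lies at the upper right of the left panel, with a macrophage sum of 623 and 8.70 FPKM of Osmr. The open day 7 point has a macrophage sum of 392 and 9.13 FPKM of Osmr.

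The Hrh1 promoter is shown because Hrh1 had the largest ratio of day 7 to sham among the 7 genes. It lies at chr4:149120261-149120510 of GRCr8 on the plus strand, ends 1 base before the annotated start, and has a GC content of 70.4%. Capitals mark its match to the NF-kB motif (GGGA and CC with 4 bases between) on the opposite strand, which begins at position -46.
Hrh1: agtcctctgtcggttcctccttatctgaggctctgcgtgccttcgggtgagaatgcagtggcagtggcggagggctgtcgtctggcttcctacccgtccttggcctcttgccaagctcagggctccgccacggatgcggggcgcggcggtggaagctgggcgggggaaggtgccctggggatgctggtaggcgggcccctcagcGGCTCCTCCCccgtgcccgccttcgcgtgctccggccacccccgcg

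F2rl1 encodes PAR2, a receptor that trypsin, tryptase and cathepsin S activate by cutting its outer end. It was the lowest of the set, with sham samples between 0.35 and 0.67 FPKM and day 1 samples between 0.38 and 0.89 FPKM. Day 7 samples had 0.60 to 0.81 FPKM, while day 14 samples spread over 0.40 to 0.97 FPKM. All groups overlapped. The mean log2(FPKM + 1) differed from sham by 0.11 on day 7 and by 0.10 on day 14, each with p = 0.400 in a two-sided exact permutation test, and the day 1 difference was 0.05. A value of this size rests on few fragments, whose number FPKM does not give.

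Between the TCI days, limma called 0 of the 6 tested members in each comparison. From day 1 to day 7, 10.4% of all tested genes were called, from day 1 to day 14 6.96% and from day 7 to day 14 0.0998%. The nearest to a call was Osmr on day 14 against day 1, with a difference of 0.69 on the log2(FPKM + 1) scale (SE 0.19, 95% interval 0.27 to 1.11, limma's adjusted p = 0.0512). Its values on these days did not overlap, and 13.8% of all tested genes were higher in every day 14 sample than in every day 1 sample. Limma called it with a pseudocount of 0.1 (0.84, adjusted p = 0.0434), after centring on the pan-neuronal markers (adjusted p = 0.0427), and without replicate 3 (adjusted p = 0.0375) or replicate 4 (adjusted p = 0.0329) of day 14. The other 20 alternatives did not call it, among them all 16 samples (0.61, limma's adjusted p = 0.124). Over all alternatives the difference ranged from 0.50 to 0.84 and limma's adjusted p from 0.0329 to 0.201. Against day 1, Hrh1 was 0.58 higher on day 7 (SE 0.23, limma's adjusted p = 0.136), again without overlap, where 23.8% of all tested genes were higher in every day 7 than in every day 1 sample. Limma called this difference with all 16 samples (0.64, adjusted p = 0.0375) and with only both groups in the fit (adjusted p = 0.0169). Against day 1, Osmr was 0.49 higher on day 7 (SE 0.21, limma's adjusted p = 0.166), which was called without replicate 2 of day 14 in the shared fit (adjusted p = 0.0473). The remaining members had adjusted p of 0.316 or more between TCI days.

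Other genes of the same pathways were taken from lists. Of 16 tested non-peptidergic neuron genes, 1 rose on TCI day 7 and 0 changed on day 14 (limma, adjusted p of at most 0.05). The gene that rose was Mrgprf, another Mas-related receptor, from 3.50 ± 0.562 FPKM in sham to 6.51 ± 1.36 FPKM on day 7 (0.73, limma's adjusted p = 0.0126). Which cells of the ganglion carried Mrgprf was not tested, so its rise is not shown to lie in non-peptidergic neurons. P2rx3, the ATP-gated channel of these neurons, was at 101 FPKM in sham and 120 FPKM on day 7 (0.24, adjusted p = 0.132). Scn10a, the sodium channel Nav1.8, was at 97.6 FPKM in sham and 87.5 FPKM on day 7 (-0.16, adjusted p = 0.139), and Ret, the receptor for GDNF family ligands, was at 155 and 144 FPKM (-0.11, adjusted p = 0.376). Related Mrgpr genes of near-identical sequence may share reads, and their values are uncertain.

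Among 15 tested itch neuron genes, 2 rose and 1 fell on day 7, and 1 rose on day 14. Tlr7, an RNA-sensing receptor that macrophages also express, rose from 0.425 to 2.22 FPKM on day 7 (1.15, limma's adjusted p = 0.00681) and to 1.75 FPKM on day 14 (adjusted p = 0.0237). Crlf2, the receptor of the itch cytokine TSLP, rose from 12.7 ± 1.15 to 17.7 ± 1.06 FPKM on day 7 (0.45, adjusted p = 0.00621). Htr7, a serotonin receptor, fell from 1.80 ± 0.195 to 1.23 ± 0.298 FPKM on day 7 (-0.33, adjusted p = 0.0430). Sst, the peptide somatostatin that is made by the same neurons as Nppb, had a mean of 87.1 FPKM in sham, 87.5 on day 7 and 80.1 on day 14 (adjusted p = 0.970 and 0.615). Trpv1, the capsaicin receptor, had 40.7, 41.0 and 37.8 FPKM (adjusted p = 0.949 and 0.438).

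In the oncostatin M and IL-31 pathway, 6 of 15 tested genes rose on day 7 and 5 on day 14, and 0 fell. Socs3, a feedback inhibitor of the same receptors, rose from 3.64 to 6.88 FPKM on day 7 (0.76, limma's adjusted p = 0.00426). The cytokine gene Clcf1 rose from 0.378 to 1.22 FPKM (0.68, adjusted p = 0.00952) and the receptor gene Il6r from 1.78 to 3.17 FPKM (0.59, adjusted p = 0.00696). The kinase gene Jak1 and the transcription factor gene Stat3 were not called on either day, with adjusted p from 0.200 to 0.893. Of the ligands, Il31 was at most 0.12 FPKM and Osm at most 0.84 FPKM in the 14 samples, and both missed the filter.

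Of the natriuretic peptide pathway, 3 of 8 tested genes rose on day 7 and 2 on day 14. Npr1, the receptor of the peptide encoded by Nppb, rose from 0.575 ± 0.104 FPKM in sham to 1.59 ± 0.0503 FPKM on day 7 (0.72, limma's adjusted p = 0.000615) and 1.13 ± 0.294 FPKM on day 14 (0.43, adjusted p = 0.0113). Furin, a protease that cleaves propeptides, rose from 12.1 to 14.5 FPKM on day 7 (0.24, adjusted p = 0.00601) and Npr2, the receptor of C-type natriuretic peptide, from 37.5 to 42.3 FPKM (0.17, adjusted p = 0.0355). The histamine pathway had 0 of 7 tested genes called on day 7 and on day 14, with 0 of them at an unadjusted p under 0.05 on day 7 in limma. Its most abundant genes Plcb3, Gnaq and Gna11, which carry the H1 receptor signal inside the cell, had day 7 differences of 0.08, -0.15 and -0.06. Hdc, the enzyme that makes histamine, was at 0.29 to 0.43 FPKM in sham and 0.21 to 0.35 FPKM on day 7.

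Of 10 tested genes of the protease-activated receptor pathway, 5 rose on day 7, and 6 rose and 1 fell on day 14. Ctss, the cathepsin S that can activate PAR2 and that macrophages make, rose from 8.70 ± 3.12 FPKM in sham to 58.6 ± 9.20 FPKM on day 7 (2.67, limma's adjusted p = 0.000148) and 43.3 ± 21.3 FPKM on day 14 (2.15, adjusted p = 0.000691). The protease inhibitor gene Spint2 rose from 6.95 to 17.5 FPKM on day 7 (1.23, adjusted p = 4.97e-05), the tissue factor gene F3 from 1.98 to 5.29 FPKM (1.08, adjusted p = 0.00865) and the matriptase gene St14 from 0.460 to 1.81 FPKM (0.92, adjusted p = 0.0189). F10, the coagulation factor X, rose on day 14 (1.03, adjusted p = 0.0455), with values from 0.79 to 5.46 FPKM. The gene that fell on day 14 was F2r, the thrombin receptor (-0.21, adjusted p = 0.0397), named after its value was seen. On TCI day 1 limma called 0 genes in all of these lists.

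**Figure D5:**
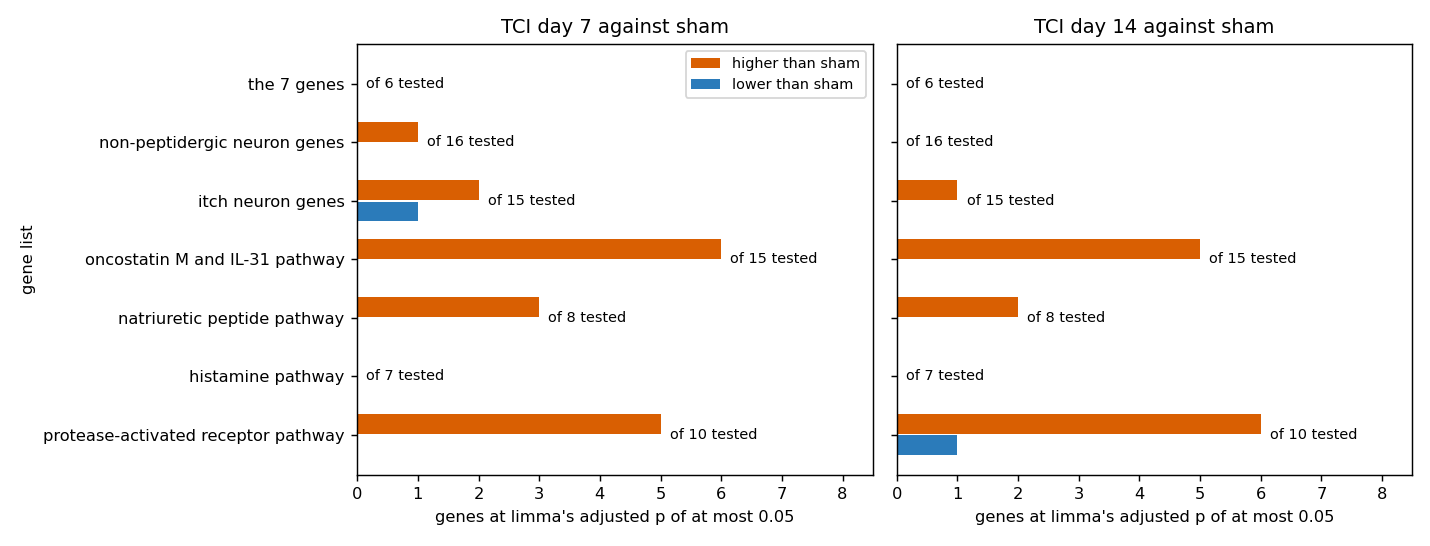
Number of genes with limma's adjusted p of at most 0.05 (x axis), higher or lower than sham, in the 7 genes and the 6 pathway lists (y axis), with the number tested beside each bar, on TCI day 7 (left) and day 14 (right). Over all tested genes 17.9% were called on day 7 and 15.1% on day 14. The oncostatin M and IL-31 list has 6 and 5 higher genes and the 7 genes have 0.

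For each member with a mean of at least 1 FPKM, the genes with the most similar pattern were listed by Pearson's r over the 14 samples on the log2(FPKM + 1) scale, a description without a test, since the samples share group, depth and cell makeup. The leading genes were Kptn (r = 0.861), Rspo2 (0.854) and Plcb3 (0.847) for Mrgprd, and the potassium channel gene Kcnq5 (0.854), Cdkl2 (0.834) and Rangap1 (0.819) for Mrgpre. For Il31ra they were LOC102551194 (0.867), the sodium channel gene Scn9a (0.846) and Fam160b1 (0.842). Osmr was closest to Fkbp15 (0.941), Net1 (0.924) and Clcn7 (0.923), and Hrh1 had Grb10 (0.947) and Wdr11 (0.915) among its closest genes. Nppb had lower values, with Parp8 (0.783), Mcm9 (0.749) and Gins1 (0.743). Among the members themselves, r over the same samples was 0.15 between Il31ra and Osmr, 0.54 between Mrgpre and Il31ra and -0.59 between Nppb and Hrh1.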

How the data were processed

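RNA-Seq of DRG was analysed in 16 samples, 14 of them in the main comparisons. The authors removed low-quality reads, used HISAT and Bowtie2 for mapping and RSEM for expression, and deposited FPKM per gene, 1 table per sample. The labels name an Illumina protocol, CASAVA 1.4 and Bowtie2, and the methods BGISEQ-500. The genome build and annotation were not given in the sources used here. FPKM is scaled by gene length and mapped fragments, so a gain in some cell types lowers the values of others, and depth per sample is unknown beyond the rough estimate above. At most 2.78% of the values above 0 were identical between any pair of samples.

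Values were transformed to log2(FPKM + 1), which understates the fold changes of low genes. Genes reaching 1 FPKM in 3 or more samples were tested with limma 3.58.1 in R 4.3.3 (lmFit, eBayes with trend, all 4 groups in 1 fit), with Benjamini-Hochberg adjustment over all tested genes. Intervals are 95% intervals. The script was tested on simulated data. Exact permutation tests compared mean log2(FPKM + 1) over samples, two-sided and unadjusted over the genes. Replicates are separate animals. The members, the gene lists, the promoter motifs and the tests were chosen with earlier results of these data known. Named were all members, per list and day up to 4 called genes with the largest change and the 3 with the highest mean, and 3 genes per member by similarity. Osm, Il31, Hdc, Cpa3, Cma1, Kit and F2r were added as ligands, markers or single counts. Values of 2 genes that the rule names are left out here. Promoters came from RefSeq (GRCr8) and show 250 bases before the start. Matches were searched on both strands.

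Alternatives were all 16 samples, only the 2 groups compared, no trend, quantile normalization, rescaling to TPM, centring on pan-neuronal markers, other filters, a pseudocount of 0.1, the cut-offs of the study, a replicate block and leaving out each sample.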

Additional observations from a re-analysis of the deposited data

Results flagged for a closer look

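Each of the 7 genes was examined in each of the 4 groups for a sample far from the other 3 (28 groups, all 16 samples, log2(FPKM + 1)), and 3 values were found, where chance gives about 1 in 20 groups. A value counts when its gap to the nearest sample, as a share of the range of the group, exceeds Dixon's critical value. On TCI day 7, replicate 3 stood apart for Mrgprd with 8.61 FPKM (0.860 of the range) and for Mrgpre with 11.8 FPKM (0.918 of the range). This sample carried the muscle signal given above and was left out by the study. In sham, replicate 2 stood apart for F2rl1 with 0.35 FPKM (0.857 of the range), at a level that rests on few fragments.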

How the results depend on the processing

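As reported, limma called 0 members in each of the 6 comparisons. On TCI day 7 against sham, limma called 1 member with all 16 samples (Il31ra lower), 2 after quantile normalization (Mrgpre and Il31ra lower), 1 after rescaling to TPM (Mrgpre lower), 1 after centring on pan-neuronal markers (Hrh1 higher) and 2 with only the 2 groups compared (Il31ra lower, Hrh1 higher). On day 14 against sham it called 1 member after quantile normalization (Mrgpre lower), 1 after rescaling to TPM (Mrgpre lower) and 1 after centring (Osmr higher). On day 7 against day 1 it called 1 with all 16 samples and 1 with only the 2 groups compared (Hrh1 higher in both). On day 14 against day 1 it called 1 after centring and 1 with a pseudocount of 0.1 (Osmr higher in both). Leaving out each sample in turn gave 0 to 1 called members on day 7 and on day 14 against sham and on both later days against day 1, and 0 to 0 on day 1 against sham and on day 14 against day 7. The cause was not tested. Quantile normalization moved the median of all tested genes on day 7 by -0.11 (log2) and centring by 0.17, so that the calls under both are relative to that shift.

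With the replicate number as a block, 0 members were called in all comparisons. Samples of the same number came from different animals, and their deviations from the group means had correlations from -0.10 to 0.27 (18 pairs, median 0.00), with a highest value of 0.41 between samples of different number, so that the numbers do not pair the samples. With 3 or 4 samples per group and unknown fragment numbers, small differences of Nppb and F2rl1 were not detectable.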
